A study of Rattus norvegicus with 42 samples.

Results

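The immediate early transcription factors examined here were Fos, Fosb, Fosl2, Jun, Junb, Jund, Egr1, Atf3, Myc and Ier2, taken by gene name. They are 10 of the 26258 gene names in the table of RNA polymerase II phosphorylated at serine 2 of its carboxy terminal domain (pSer2 Pol2), where they have 24 of the 60999 regions, at 14 distinct positions. Of the 10 genes, 7 have a row among the 22929 genes of the RNA count table, and 8 of the 3981 regions bound by the glucocorticoid receptor (GR) were centred within 50 kb of a transcription start site (TSS) of a member.

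All livers came from adrenalectomised male Sprague Dawley rats, controls included. Every rat had received carprofen and dexamethasone at surgery and corticosterone (CORT) in saline to drink during recovery, then saline without CORT before the infusion to let it clear, so that the vehicle (VEH) groups had met glucocorticoid earlier. Infusions ran for 3 h into a vein, either at 1 ml per h for 20 min of every 60 min (PULS) or constantly at 0.333 ml per h after a brief faster start (CONS). For ChIP-Seq, livers were taken after 140 min, the peak of the third pulse, or 180 min, its nadir, which gives PEAK_140, NADIR_180, CONS_140, CONS_180 and a VEH group of pulsatile vehicle, each with 2 libraries per antibody. Each ChIP library pooled 6 rats, and the VEH group holds a library of 140 min and another of 180 min. For RNA-Seq, 4 groups of 3 livers were taken at 180 min (PULS CORT, CONS CORT and the pulsatile and constant VEH). With groups this small, p-values measure the spread between these libraries only.

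Immediate early genes are transcribed within minutes of a stimulus without new protein synthesis, mostly through serum response factor and its Elk partners, which bind CArG boxes, and through CREB, which binds the cAMP response element. Fos and Jun proteins pair to form AP-1, Egr1 is a zinc finger factor, Atf3 a stress-induced relative of CREB, Myc a regulator of growth that pairs with Max, and Ier2 a small nuclear protein. In liver these genes are known for their brisk response to partial hepatectomy and injury, and GR is known both to bind DNA directly and to restrain AP-1.

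Depth ranged from 2051977 to 6715803 tags for GR, from 4938473 to 9326927 tags for pSer2 Pol2 and from 3956379 to 7777219 counted reads for RNA. The deepest pSer2 Pol2 libraries were those of CONS_140 (9326927 and 8923921 tags), and the deepest GR library was replicate 1 of CONS_140. RNA carried the liver label plainly, with hepatocyte markers summing to 88000 to 137500 CPM (counts scaled to the total of each library) in every group, whereas cholangiocyte markers summed to 7.57 to 14.6 CPM. Kupffer cell, endothelial and leukocyte markers overlapped between the 4 groups. As a check of the treatment, all 5 classical GR targets measured (Fkbp5, Tsc22d3, Per1, Zbtb16 and Tat) rose in RNA with CORT in both patterns.

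pSer2 Pol2 marks elongating polymerase. Values are on a log2 scale after input subtraction, over the gene body up to 10 kb from the TSS, and the region with the highest mean over the 10 libraries stands for each gene. Divided by length, the log2 level per kb was highest at Junb (7.21), followed by Ier2 (6.96), Jun (6.74), Jund (6.04), Egr1 (5.02) and Myc (4.84). Those 6 genes lay at or above the 96.2 percentile of 16500 genes, while Fosl2 (2.25 per kb) lay at the 79.2 percentile and Fos (1.53 per kb) at the 71.8 percentile. Fosb (-1.23 per kb) and Atf3 (-5.16 per kb) carried little. Among the 6 highest every gap between neighbours in the order was smaller than the range of either gene over the 10 libraries, which was 2.04 to 3.90 on the log2 scale. Livers of adrenalectomised rats held much elongating polymerase on the Jun genes, Ier2, Egr1 and Myc, and little on Fosb and Atf3.

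**Figure D1:**
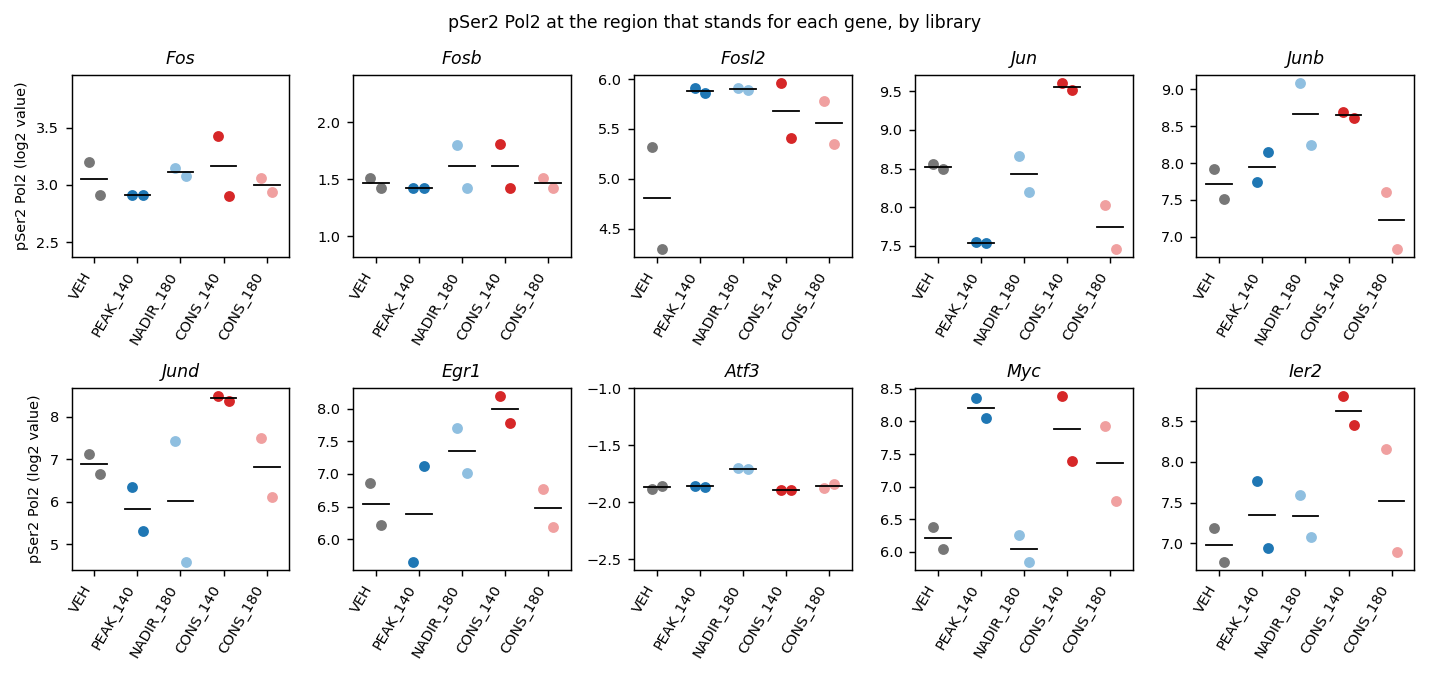
pSer2 Pol2 log2 value (vertical axis, with its own range in each panel) in each of the 10 libraries, by group (horizontal axis), for the region that stands for each gene, where points are libraries and bars are means of 2. Myc is high at PEAK_140, CONS_140 and CONS_180 and low at VEH and NADIR_180, whereas Jun is lowest at PEAK_140 and CONS_180 and highest at CONS_140.

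A region was called changed at an adjusted p below 0.05 (limma with Benjamini-Hochberg adjustment over 38315 regions) and more than 1.5-fold. None of the 10 members was called in any of the 9 pSer2 Pol2 comparisons. Calls were rare over all regions too, at 0.989% for PEAK_140 against VEH, 0.00522% for NADIR_180, 0.788% for CONS_140 and 0.214% for CONS_180, and against NADIR_180 at 0.48% for PEAK_140 and 0.17% for CONS_180. Before adjustment, p was below 0.05 for 3 members at PEAK_140 (5.01% of all regions), 3 at NADIR_180 (1.45%), 6 at CONS_140 (5.91%) and 2 at CONS_180 (2.94%). Relative to VEH, the members had a median log2 fold change of 0.99 at CONS_140, beside 0.15 over all regions and 0.64 over the 512 short regions of high value described below for Egr1. The median was -0.02 at PEAK_140 (-0.05 over all regions), 0.15 at NADIR_180 (0.01) and -0.03 at CONS_180 (0.01). Without CONS_140 replicate 2, Myc and Jun were called at CONS_140 (limma adjusted p = 0.0268 and 0.0473).

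Myc was the member that tracked the hormone most closely. Its region (rn6, chr7:102586313-102591240, plus strand, the whole gene body) held log2 values of 6.39 and 6.05 in VEH, 8.36 and 8.06 at PEAK_140, 6.26 and 5.84 at NADIR_180, 8.39 and 7.39 at CONS_140, and 7.93 and 6.78 at CONS_180. All 6 libraries of PEAK_140 and of constant CORT lay above all 4 libraries of VEH and NADIR_180. PEAK_140 exceeded VEH by 1.99 on the log2 scale (SE 0.456, unadjusted p = 0.00108 in limma, adjusted p = 0.0845) and NADIR_180 by 2.16 (SE 0.456, adjusted p = 0.0892). Same-numbered pSer2 Pol2 libraries deviated together, and a fit with the replicate number as a block was also made. With that replicate block the difference between PEAK_140 and NADIR_180 passed the threshold (limma, adjusted p = 0.029). It also passed once libraries were centred on their medians (limma, adjusted p = 0.00805). Against VEH the centred difference at PEAK_140 was 2.08 (limma, adjusted p = 0.00858). CONS_140 differed from VEH by 1.67 (SE 0.456, limma adjusted p = 0.212) and CONS_180 by 1.14 (SE 0.456, limma adjusted p = 0.999). CONS_180 exceeded NADIR_180 by 1.31 (SE 0.456, limma adjusted p = 1). No region bound by GR was centred within 50 kb of Myc.

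Jun, which encodes the partner of Fos in AP-1, had the opposite order at the pulse. Its region (rn6, chr5:114011189-114014277, minus strand, a gene of 1 exon) held 8.56 and 8.49 in VEH, 7.55 and 7.54 at PEAK_140, 8.66 and 8.20 at NADIR_180, 9.61 and 9.51 at CONS_140, and 8.03 and 7.46 at CONS_180. Neither PEAK_140 library reached the lower VEH library, the NADIR_180 values straddled VEH, and both CONS_140 libraries lay above every other library. PEAK_140 was lower than VEH by a log2 fold change of -0.98 (SE 0.32, unadjusted p = 0.0106 in limma, adjusted p = 0.413).

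Of the members, Jun had the lowest p between the patterns of infusion at 140 min and was not called. PEAK_140 against CONS_140 gave a log2 fold change of -2.02 (SE 0.32, limma adjusted p = 0.0662), and the change from 140 min to 180 min differed between the patterns by -2.71 (SE 0.453, limma adjusted p = 0.0667). Over all regions 0.0261% and 0.0574% were called in these 2 comparisons. With the replicate block the former passed (limma, adjusted p = 0.0325) and the latter did not (limma, adjusted p = 0.0647). Over all regions the median of PEAK_140 against CONS_140 was itself -0.26, and -0.71 over the 512 short regions of high value described below for Egr1, and once libraries were centred on their medians the Jun difference was -1.79 (limma, adjusted p = 0.0147). CONS_140 against CONS_180 gave 1.82 (SE 0.32, limma adjusted p = 0.286), in a comparison where 0% of regions were called.

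Junb, Jund, Ier2 and Egr1 shared with Jun their highest or near highest values at CONS_140. Junb, a Jun relative that often limits AP-1 activity, held 7.92 and 7.51 in VEH, 7.74 and 8.15 at PEAK_140, 9.09 and 8.24 at NADIR_180, 8.70 and 8.61 at CONS_140, and 7.61 and 6.84 at CONS_180. Its pulse nadir libraries thus lay above both of its pulse peak libraries, whereas under constant infusion the 180 min libraries lay below the 140 min libraries. The change from 140 min to 180 min differed between the patterns by -2.15 (SE 0.558, unadjusted p = 0.00263 in limma, adjusted p = 0.29).

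Ier2, whose product acts with transcription factors in the nucleus, held 7.19 and 6.77 in VEH, 7.76 and 6.94 at PEAK_140, 7.59 and 7.08 at NADIR_180, 8.81 and 8.45 at CONS_140, and 8.15 and 6.89 at CONS_180. CONS_140 exceeded VEH by 1.65 (SE 0.46, limma adjusted p = 0.233). Jund, the Jun relative that resting cells keep, held 7.11 and 6.65 in VEH, 6.33 and 5.31 at PEAK_140, 7.43 and 4.58 at NADIR_180, 8.48 and 8.38 at CONS_140, and 7.49 and 6.12 at CONS_180. The NADIR_180 libraries of Jund lay further apart than any of its group means did from VEH. PEAK_140 against CONS_140 gave -2.61 for Jund (SE 0.771, limma adjusted p = 0.256).

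Egr1, an early target of growth factor signalling, held 6.86 and 6.22 in VEH, 5.65 and 7.12 at PEAK_140, 7.71 and 7.01 at NADIR_180, 8.19 and 7.79 at CONS_140, and 6.77 and 6.19 at CONS_180. Both CONS_140 libraries lay above the other 8, and CONS_140 exceeded VEH by 1.45 (SE 0.496, limma adjusted p = 0.459). The CONS_140 libraries were the deepest of the set, and high values were raised there in general. Among the 512 regions of up to 5 kb with a mean value of at least 6.5, limits chosen after the values were seen, the median log2 fold change of CONS_140 against VEH was 0.64 and that of PEAK_140 against CONS_140 was -0.71. The part of depth in the CONS_140 values was not tested.

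**Figure D2:**
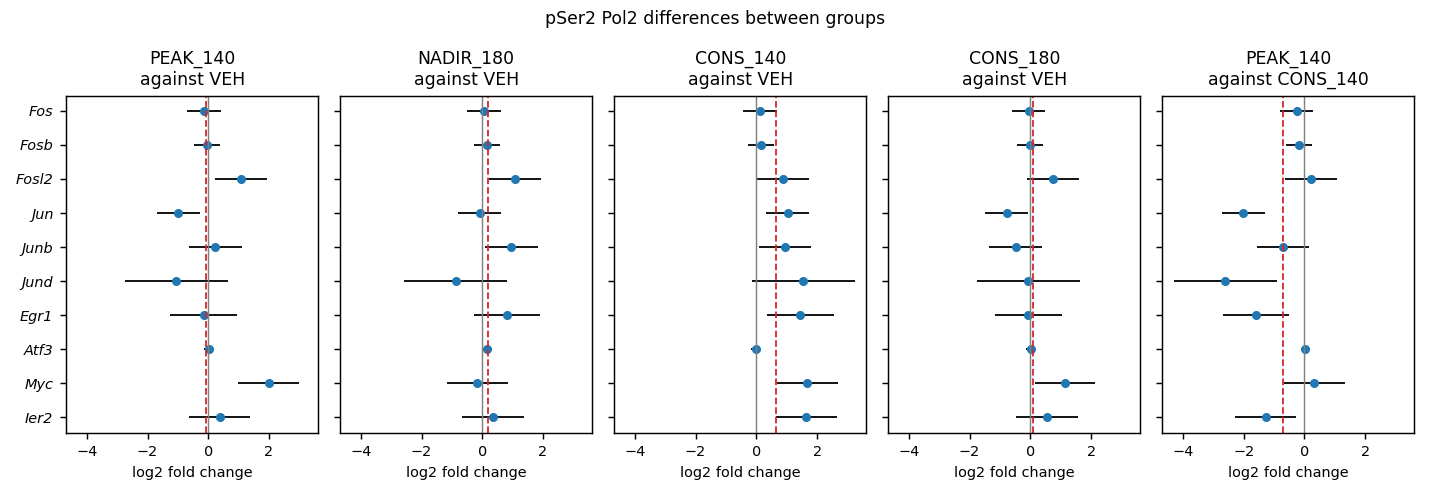
pSer2 Pol2 log2 fold change (horizontal axis) of the 10 members (vertical axis) in 5 comparisons, where points are estimates over 2 libraries a group and lines are 95% confidence intervals from limma. Dashed lines mark the median of 512 short regions with high values (-0.09, 0.17, 0.64, 0.08 and -0.71 from left to right), and at PEAK_140 the interval of Myc lies above that median and that of Jun below it.

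Fosl2, a Fos relative that responds later than Fos, was the member whose CORT libraries all lay above both VEH libraries. Its region (rn6, chr6:25606995-25616995, minus strand, the 10 kb from the TSS) held 5.32 and 4.30 in VEH, 5.91 and 5.86 at PEAK_140, 5.91 and 5.89 at NADIR_180, 5.96 and 5.40 at CONS_140, and 5.78 and 5.35 at CONS_180. The lowest of the 8 CORT libraries exceeded the higher VEH library by a small margin, and the 2 VEH libraries lay further apart than the 8 CORT libraries did from each other. The log2 fold changes against VEH were 1.07 at the peak and 1.09 at the nadir of the pulse, and 0.87 and 0.75 at CONS_140 and CONS_180 (SE 0.39 each, limma adjusted p from 0.536 to 1). Ier2 also had a mean above VEH in every CORT group (by 0.37, 0.35, 1.65 and 0.54 in the same order), but its libraries overlapped with VEH except at CONS_140.

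The remaining members gave little to compare. Fos stayed between 2.91 and 3.43 in all libraries, and 5 of its 10 libraries lay within 0.1 of its lowest value. Its 95% interval of CONS_140 against VEH was from -0.44 to 0.66, on a scale that draws low values together. Fosb stayed between 1.42 and 1.81, and 8 of its 10 libraries lay within 0.1 of its lowest value. Atf3 stayed between -1.89 and -1.70, also with 8 libraries within 0.1 of its lowest value. At such tag numbers the deposited scale draws the libraries together, so differences at Fosb and Atf3 were not detectable at this depth. The other 14 regions of the members, most at the same coordinates as those described, were not called in limma either, and among them a Myc transcript of 759 bases (rn6, chr7:102589982-102590741) differed at PEAK_140 from VEH by 1.02 (SE 0.306, limma adjusted p = 0.297).

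GR binding was examined at the 8 regions near members, of which Junb and Jund had 2 each and Fosb, Fosl2, Jun and Ier2 had 1 each. None lay within 50 kb of Fos, Egr1, Atf3 or Myc. GR regions were called by the same limits (limma over 3981 regions). Against VEH, 2 of the 8 near members were called at PEAK_140 (80.5% of all regions) and 0 at NADIR_180 (7.79%). Under constant CORT 3 were called at CONS_140 (65.1%) and 3 at CONS_180 (68.2%), and all calls were of higher values. At NADIR_180, 0 of the 8 also had an unadjusted p below 0.05, as 16.8% of all regions did. Against NADIR_180, 2 of 8 were called for PEAK_140 and 3 for CONS_180 (69.3% and 49.6% of all regions), and 0 for PEAK_140 against CONS_140 (0.0502%), where limma gave 1 of 8 and 14.1% of all regions an unadjusted p below 0.05. At PEAK_140 the members' regions had a median log2 fold change of 1.81, beside 4.17 for all regions. Regions entered the set as peaks of a group. Of the 8, 2 were peaks of PEAK_140 (80.6% of all regions), 6 of CONS_140 (43.3%) and 2 of CONS_180 (61%). These counts of calls and medians thus repeat in part the peaks through which the regions entered. Without CONS_140 replicate 2 the count at CONS_140 was 6, and without NADIR_180 replicate 2 that at NADIR_180 was 1.

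**Figure D3:**
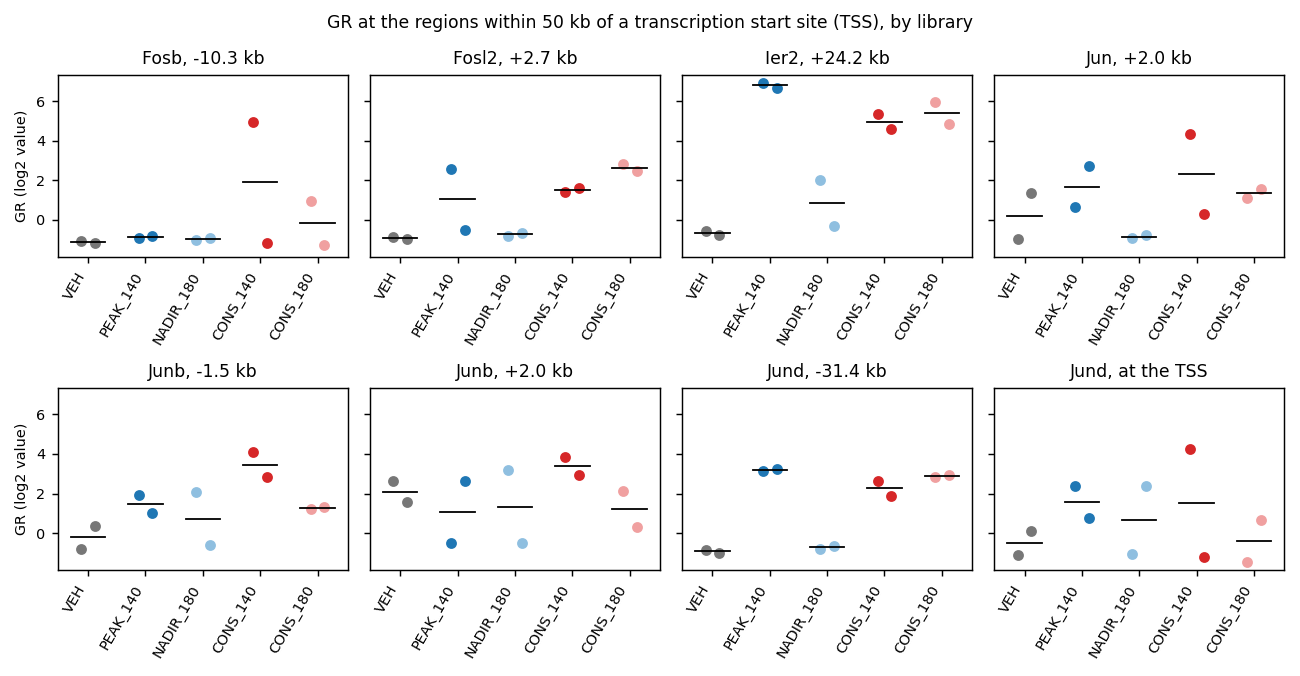
GR log2 value (vertical axis, shared) in each of the 10 libraries, by group (horizontal axis), at the 8 regions within 50 kb of a member's TSS, named by the member and the distance of the region's centre from it (positive within or beyond the gene), where points are libraries and bars are means of 2. The region 24.2 kb downstream of Ier2 and that 31.4 kb upstream of Jund are high at PEAK_140 and both CONS times and low at VEH and NADIR_180, whereas those at Fosb, at Jun and at the TSS of Jund have their highest value in 1 of the 2 CONS_140 libraries.

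The strongest of them lay 24.2 kb downstream of the TSS of Ier2 (rn6, chr19:25751093-25751732, intergenic, Ier2 the nearest gene). It held log2 values of -0.55 and -0.75 in VEH, 6.92 and 6.66 at PEAK_140, 2.00 and -0.31 at NADIR_180, 5.32 and 4.58 at CONS_140, and 5.98 and 4.87 at CONS_180. The 6 libraries of PEAK_140 and constant CORT lay far above the other 4. The region was a peak of PEAK_140, CONS_140 and CONS_180 and not of VEH or NADIR_180. Comparisons between these groups thus repeat in part the values through which it entered the set. GR rose against VEH by 7.44 at PEAK_140 (SE 0.788, limma adjusted p = 7.92e-05), by 5.60 at CONS_140 and by 6.07 at CONS_180, and PEAK_140 exceeded NADIR_180 by 5.95 (SE 0.788, limma adjusted p = 0.000545). The change over time differed between the patterns by 6.41 (SE 1.11, limma adjusted p = 0.00591), in a comparison where 44% of all GR regions were called. Once libraries were centred on their medians the PEAK_140 rise was 2.82 (limma adjusted p = 0.00816), while those at CONS_140 and CONS_180 were 1.49 and 2.01 and the difference over time 3.03, which were not called (limma adjusted p = 0.11, 0.0587 and 0.102). pSer2 Pol2 on Ier2 did not follow this order, with PEAK_140 and NADIR_180 overlapping, at a difference of 0.02 (95% interval from -0.99 to 1.03).

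A region 31.4 kb upstream of Jund (rn6, chr16:20517875-20518270, intergenic, with Pgpep1 the nearest gene, a peak of PEAK_140 alone) had the same order at a lower level. Its entry into the set thus rested on PEAK_140 being high, which the comparisons of PEAK_140 then repeat. It held -0.84 and -0.99 in VEH, 3.12 and 3.23 at PEAK_140, -0.78 and -0.64 at NADIR_180, 2.66 and 1.87 at CONS_140, and 2.85 and 2.95 at CONS_180. GR rose by 4.09 at PEAK_140, 3.18 at CONS_140 and 3.82 at CONS_180 against VEH (SE 0.629 each, limma adjusted p = 0.000478, 0.00221 and 0.00099). They were close to the medians of all regions (4.17, 3.38 and 3.46), so that once libraries were centred on their medians they became -0.53, -0.93 and -0.24. Centred, PEAK_140 exceeded NADIR_180 by 0.45 (limma adjusted p = 0.827), in place of 3.88.

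The region in intron 1 of Fosl2 (rn6, chr6:25613985-25614610, 2.7 kb from the TSS) held -0.85 and -0.95 in VEH, 2.57 and -0.50 at PEAK_140, -0.79 and -0.67 at NADIR_180, 1.40 and 1.59 at CONS_140, and 2.80 and 2.47 at CONS_180. All 4 libraries of constant CORT lay above VEH, whereas only replicate 1 of PEAK_140 stood clear of it. The region was a peak of CONS_180 alone, so it entered the set through the group in which it was then high. GR was higher by 3.53 at CONS_180 against VEH (SE 0.978, limma adjusted p = 0.0117) and exceeded NADIR_180 by 3.37 (SE 0.978, limma adjusted p = 0.0221). The former was close to the median of all regions (3.46), and once libraries were centred on their medians it became -0.53. The call against VEH was lost without VEH replicate 2 (limma adjusted p = 0.0587) or CONS_180 replicate 1 (limma adjusted p = 0.0574). Without either CONS_180 library the comparison with NADIR_180 was not called (limma adjusted p = 0.0975 without replicate 1 and 0.0738 without replicate 2), nor was it without either NADIR_180 library (limma adjusted p = 0.0712 and 0.0868).

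Both regions of Junb were peaks of CONS_140 alone. The upstream region (rn6, chr19:26095971-26096498, 1.5 kb before the TSS, intergenic) held -0.80 and 0.39 in VEH, 1.93 and 1.01 at PEAK_140, 2.08 and -0.60 at NADIR_180, 4.10 and 2.81 at CONS_140, and 1.23 and 1.32 at CONS_180. Their entry into the set thus rested on CONS_140 being high. The upstream region was higher at CONS_140 than in VEH by 3.66 (SE 0.994, limma adjusted p = 0.0105), close to the median of all regions (3.38), and once libraries were centred on their medians this became -0.45. The call was lost without VEH replicate 1 (limma adjusted p = 0.0718) or without CONS_140 replicate 1 (limma adjusted p = 0.0621). The region at the end of the Junb gene (rn6, chr19:26092505-26093032) held 2.61 and 1.58 in VEH and 3.84 and 2.96 at CONS_140, a difference of 1.30 (SE 1.40, limma adjusted p = 0.424). Uncentred, the 2 Junb regions differed at PEAK_140 from VEH by 1.68 and -1.02, and the latter at CONS_180 by -0.87, none of them called. The medians of all regions were 4.17 at PEAK_140 and 3.46 at CONS_180. Once libraries were centred on their medians, both regions were called lower at PEAK_140, by -2.94 and -5.64 (limma adjusted p = 0.0397 and 0.00671). The latter was also called at CONS_180, by -4.93 (limma adjusted p = 0.0277). Lower here means relative to the median region and not a loss of GR against VEH.

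The regions at the TSS of Jund, in the exon of Jun and 10.3 kb upstream of Fosb were also peaks of CONS_140 alone, and each had a wide gap between the CONS_140 libraries. At Jund (rn6, chr16:20486453-20486980) these held 4.27 and -1.22, at Jun (rn6, chr5:114012003-114012530) 4.34 and 0.31, and at Fosb (rn6, chr1:80231750-80232277) 4.95 and -1.15. The high value was that of replicate 1 in each case, the deepest GR library, at 6715803 tags beside 3663062 for replicate 2. In all, 5 of the 8 regions were peaks of CONS_140 alone, as were 6.33% of all regions, and the part of depth in this was not tested.

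The promoters of Jund, Ier2 and Fosl2 are shown because GR regions lay at or near these genes and each promoter holds a known element of immediate early genes or of their products. Each runs from 250 bases before the start to 50 after it, as given by RefSeq for GRCr8, a later build than the rn6 of the data, and capitals mark the cAMP response element TGACGTCA and the EGR site GCGNGGGCG on either strand. They stand on chr16:18769722-18770021 (minus strand), chr19:40399123-40399422 (plus strand) and chr6:30039220-30039519 (minus strand), and the RefSeq table holds 6 of the 10 members in all.
Jund: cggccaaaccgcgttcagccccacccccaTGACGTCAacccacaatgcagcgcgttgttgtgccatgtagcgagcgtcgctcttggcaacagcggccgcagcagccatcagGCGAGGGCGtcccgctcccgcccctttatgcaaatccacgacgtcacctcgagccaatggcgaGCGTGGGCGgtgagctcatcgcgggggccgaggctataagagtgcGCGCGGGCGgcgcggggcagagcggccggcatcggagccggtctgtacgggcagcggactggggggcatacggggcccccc
Ier2: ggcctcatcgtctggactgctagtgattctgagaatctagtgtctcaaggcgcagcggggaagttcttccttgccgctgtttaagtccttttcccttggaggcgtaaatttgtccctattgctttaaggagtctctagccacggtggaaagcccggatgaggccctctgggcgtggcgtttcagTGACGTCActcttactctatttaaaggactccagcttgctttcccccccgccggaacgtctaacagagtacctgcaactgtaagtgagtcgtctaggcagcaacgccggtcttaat
Fosl2: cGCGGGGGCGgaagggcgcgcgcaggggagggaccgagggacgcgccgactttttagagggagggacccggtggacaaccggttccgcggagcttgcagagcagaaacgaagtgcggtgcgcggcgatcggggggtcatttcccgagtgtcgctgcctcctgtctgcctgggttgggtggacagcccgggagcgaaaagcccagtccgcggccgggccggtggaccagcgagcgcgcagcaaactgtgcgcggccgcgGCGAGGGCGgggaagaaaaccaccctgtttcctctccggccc

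Jund and Ier2 each hold the cAMP response element, which CREB and its relatives bind and which 1.83% of 33469 promoters of this length hold. Jund has 3 EGR sites and Fosl2 has 2, an element found in 4.98% of promoters. The promoter of Egr1 holds 2 CArG boxes, found in 1.64%, and those of Junb and Fosb hold none of the motifs searched. The other motifs, on both strands, were the AP-1 element TGANTCA (7.33% of promoters), the E-box CACGTG bound by Myc (6.42%), the full palindromic glucocorticoid response element, by name (0.0149%) and its part TGTTCT (20.7%, which the full element overlaps), and none of the 6 promoters held them.

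RNA was measured at 180 min only, and the count table has no row for Jun, Junb or Jund. The deposited means of exonic counts give them 134, 65.7 and 117 size-factor-scaled reads, as the authors' means over all samples. None of the 4 genes that the GR annotation shows with 1 exon has a row in the count table, whereas all 1201 with more exons have, so the features behind these counts are not established. Counts in this table were low for most members, with totals over 12 libraries of 748 reads for Fosl2, 126 for Ier2, 107 for Myc, 24 for Egr1, 24 for Atf3, 12 for Fos and 10 for Fosb. The authors' mean exonic counts have another order, with 79.6 for Ier2, 33.5 for Myc, 23.7 for Egr1, 9.12 for Fosl2, 5.40 for Atf3, 3.13 for Fos and 0.969 for Fosb. The ratio of the mean count to that exonic mean rose with the span of the gene, from a median of 0.537 for genes under 2 kb to 1.08 for those at the 10 kb limit, so levels are not compared between genes in RNA.

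Fosl2 was the member whose RNA was called changed, in counts whose features are not established. Its 748 reads over 12 libraries stood beside an authors' exonic mean of 9.12, and whether exonic reads changed alike was not tested. Its levels were 6.16, 10.4 and 8.71 CPM in pulsatile VEH, 11.2, 9.64 and 4.97 CPM in PULS CORT, 7.82, 7.05 and 6.33 CPM in constant VEH, and 27, 18.3 and 19.0 CPM in CONS CORT. The 3 CONS CORT libraries lay above the other 9, and PULS CORT overlapped its vehicle. With CONS, Fosl2 RNA rose 2.98-fold over vehicle, from 7.07 ± 0.742 to 21.4 ± 4.85 CPM (SD, n = 3), a log2 fold change of 1.58 (SE 0.246, edgeR adjusted p = 0.000407). With PULS, the log2 fold change was 0.05 (SE 0.274, edgeR adjusted p = 0.946), from 8.42 ± 2.13 to 8.59 ± 3.23 CPM.

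Fosl2 was also higher in CONS CORT than in PULS CORT, by 1.29 on the log2 scale (SE 0.249, edgeR adjusted p = 0.0213), while 0.887% of the 14092 genes tested were called in that comparison. This call was lost without PULS CORT replicate 2 (edgeR adjusted p = 0.0889), PULS CORT replicate 3 (0.0925) or CONS CORT replicate 1 (0.113). The difference between the responses to the 2 patterns was 1.52 (SE 0.369) and did not pass (edgeR adjusted p = 0.0951, with 0.0284% of genes called), though without the filter on low counts it did (edgeR adjusted p = 0.0165). The vehicles differed by -0.24 (SE 0.271, edgeR adjusted p = 0.833).

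**Figure D4:**
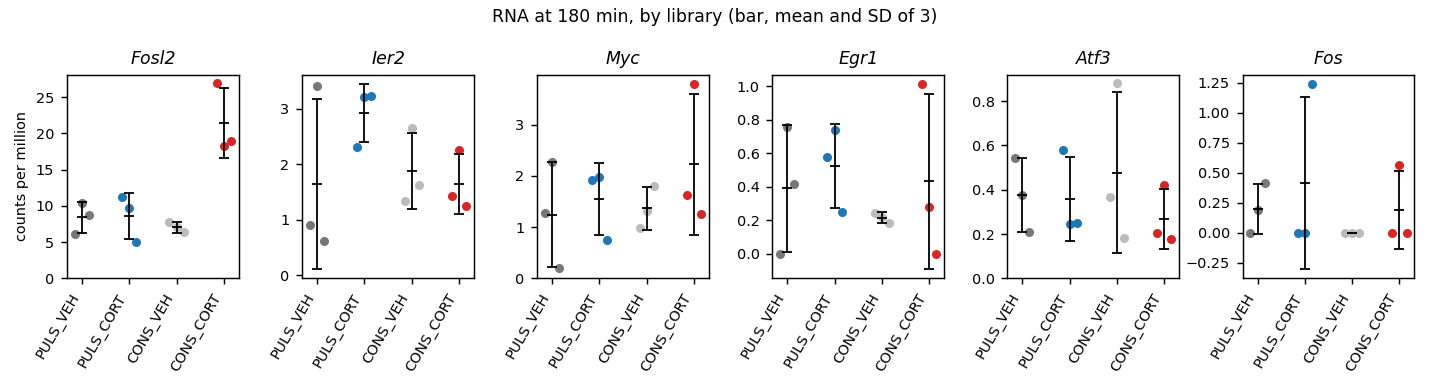
RNA level in CPM (vertical axis, with its own range in each panel) in each of 12 libraries, by group (horizontal axis), for the 6 members tested, where points are livers and bars are the mean and SD of 3. Fosl2 is the gene whose CONS CORT points stand above the rest, and Egr1, Atf3 and Fos rest on few reads.

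Of the 6 members tested, 1 (Fosl2) was thus called with CONS and 0 with PULS, where 9.2% and 4.23% of all genes were called. With PULS, 0 of the 6 had an unadjusted p below 0.05 in edgeR, as 19.8% of all genes did, and DESeq2 called 0. Ier2 was at 1.64 ± 1.53 CPM in pulsatile VEH and 2.92 ± 0.527 in PULS CORT, and at 1.87 ± 0.684 and 1.64 ± 0.535 in constant VEH and CONS CORT (SD, n = 3). Myc was at 1.25 ± 1.03 and 1.55 ± 0.697 CPM with the pulsatile infusions and at 1.37 ± 0.418 and 2.23 ± 1.38 CPM with the constant infusions. For both genes the groups overlapped, and for Myc the log2 fold change with CONS was 0.79 (SE 0.546, edgeR adjusted p = 0.407).

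The summed level of stellate cell markers, of which Pdgfrb was the largest part in every library, was lower with CORT, without overlap, in both patterns of infusion. The 4 stellate cell markers with more than 10 reads summed to 59.9 to 81.3 CPM in constant VEH and to 32.5 to 39.7 CPM in CONS CORT. They summed to 64.6 to 84.8 CPM in pulsatile VEH and to 46.7 to 58.7 CPM in PULS CORT, where Fosl2 was not called. Taken singly, Pdgfrb was lower without overlap with CONS, from 54.6 ± 8.02 to 22.2 ± 4.20 CPM (SD, n = 3). Col1a1, Lrat and Des overlapped with their vehicle in both patterns, and with PULS each of the 4 did. Of the 4, 1 was called with CONS, Pdgfrb (log2 fold change -1.29, SE 0.197, edgeR adjusted p = 0.000348), and 0 with PULS (edgeR, 1 with an unadjusted p below 0.05), and Col1a2 of the same list had 10 reads or fewer. Their part in the Fosl2 result was not tested. In whole liver, fewer cells of a type and less RNA per cell cannot be told apart.

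Among 12 relatives of Fos, Jun and Maf, 9 were tested in RNA and only Maff, a small Maf without an activation domain, rose with CONS (log2 fold change 1.67, SE 0.52, edgeR adjusted p = 0.045), from 0.357 ± 0.134 to 1.30 ± 0.463 CPM (SD, n = 3). Over all genes 9.2% were called with CONS.

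Of 28 other immediate early genes, 19 were tested in RNA, and with CONS 3 rose and 2 fell, where 9.2% of all genes were called. Zfp36, which destabilises inflammatory mRNAs, rose by 2.52 on the log2 scale (SE 0.321, edgeR adjusted p = 6.41e-05), Gadd45b, a stress response gene, by 2.56, and Dusp1, a phosphatase that switches off MAP kinases, by 1.23. Zfp36l1 changed by -1.26 and Dusp6, a phosphatase of ERK, by -1.34. With PULS only Dusp1 was called (4.23% of all genes were), with a log2 fold change of 1.61 (SE 0.298, edgeR adjusted p = 0.00491). In pSer2 Pol2, 26 of them were tested, and Zfp36 was higher at PEAK_140 by 1.54 and at CONS_140 by 2.46, Btg1 at CONS_140 by 1.67, and Zfp36l1 changed by -1.56 at PEAK_140. Over all regions 0.989% were called at PEAK_140 and 0.788% at CONS_140.

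The genes that signal to and act with the members changed little. Of 18 upstream kinases and serum response factors, 17 were tested in RNA and Mapk9, which encodes a JNK kinase, fell with CONS (log2 fold change -0.81, SE 0.148, edgeR adjusted p = 0.00153). Over all genes 9.2% were called with CONS. Of 11 genes of the Myc and Max network, 9 were tested and none was called in RNA (edgeR, 4 with an unadjusted p below 0.05 with CONS and 1 with PULS, beside 25.3% and 19.8% of all genes), nor was any of 9 in pSer2 Pol2 (limma).

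Of 12 known Myc targets, all tested in RNA, 3 rose with PULS (Nop58, Odc1 and Polr1b) and 3 with CONS (Nop56, Nop58 and Polr1b), and none fell, where 4.23% and 9.2% of all genes were called. Nop58, a protein of ribosomal RNA processing, rose by 0.74 with PULS and by 0.98 with CONS on the log2 scale (SE 0.187 and 0.188, edgeR adjusted p = 0.0304 and 0.00224). Odc1, the entry enzyme of polyamine synthesis, rose by 0.75 with PULS (SE 0.174, edgeR adjusted p = 0.0197), and Polr1b, a subunit of RNA polymerase I, by 0.78 with PULS and 0.72 with CONS. The 12 genes had a median log2 fold change of 0.22 with PULS and 0.26 with CONS, beside -0.01 over all genes in each case, and none of the 12 was called in pSer2 Pol2.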

How the data were processed

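The authors trimmed ChIP-Seq reads with Trimmomatic 0.36, aligned them to rn6 with bowtie2, removed duplicates and counted tags with HOMER 4.9.1. Their deposited GR and pSer2 Pol2 values are log2 tag numbers, transformed with DESeq2 after subtraction of input, a scale that shrinks low values towards each other. GR regions were merged from peaks called in the 5 groups. RNA reads were aligned with STAR, and the deposited RNA values are counts from featureCounts 1.6.2. The authors' mean exonic counts are a pooled signal, as counts divided by size factors, and annotation columns of the authors' files (other) gave positions and nearest genes. Columns holding the authors' own fold changes and p-values were not used.

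Here, log2 values were tested with limma 3.58.1 with a variance trend over all 10 libraries of an antibody, leaving out pSer2 Pol2 regions at 0 in every library (38315 of 60999 tested). Counts were tested with edgeR 4.0.16 (quasi-likelihood, TMM) in R 4.3.3, over 12 libraries and 14092 genes with more than 10 reads. Adjusted p-values are Benjamini-Hochberg over all features of a fit, and tests are two-sided. Depth per library is given in the report, and its number limits the precision of low values. The scripts were tested on simulated data. Members and lists were chosen with earlier results of these data known, members are described whatever their values, and genes of the lists are named where called, except for some pSer2 Pol2 results that are not reported here.

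Same-numbered pSer2 Pol2 libraries of the CORT groups deviated together (Pearson's r from 0.155 to 0.553, 12 of 12 pairs of libraries above 0.1). With 2 libraries a group, their deviations from the group mean mirror each other. The 2 pairs of libraries from any pair of groups thus gave the same r, and the 12 values are not independent. A fit with the replicate number as a block was made over the CORT libraries. VEH carries no number and could not be blocked. The labels describe 2 ChIP-Seq experiments performed apart for concordant peaks. Identifiers of the ChIP libraries of PULS, VEH and CONS fall in separate ranges, which cannot be told apart from the groups. In pSer2 Pol2 that of PEAK_140 replicate 2 stands next to VEH and far from the other PULS libraries. RNA identifiers of pulsatile and constant VEH interleave. Alternatives were other scalings, filters, variance models, DESeq2 1.42.0, and leaving out each library.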

Additional observations from a re-analysis of the deposited data

Results flagged for a closer look

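The change in GR binding from 140 min to 180 min differed between pulsatile and constant CORT at 2 of the 8 regions near members, by a test of the difference itself. Both regions were peaks of PEAK_140 and not of NADIR_180, so the test repeats in part the values through which they entered the set. The difference was 6.41 on the log2 scale for the region 24.2 kb downstream of Ier2 (SE 1.11, limma adjusted p = 0.00591) and 4.52 for that 31.4 kb upstream of Jund (SE 0.889, limma adjusted p = 0.00808). At both, binding was lower at the nadir than at the peak of the pulse, by 5.95 and 3.88, whereas CONS_140 against CONS_180 gave -0.47 and -0.64 and was not called. The difference of the changes was called at 44% of all GR regions. Once libraries were centred on their medians it was 3.03 at Ier2 (limma adjusted p = 0.102) and 1.13 at Jund (limma adjusted p = 0.722), neither called.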

How the results depend on the processing

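For the 23 comparisons and the number of regions near members, 135 of 154 values under another setting and 231 of 240 without 1 library kept their count within 1.5 times. Once libraries were centred on their medians, GR regions called numbered 0 of 8 at CONS_140, 1 at CONS_180, 1 for PEAK_140 against NADIR_180 (Ier2), 0 for CONS_180 against NADIR_180 and 0 for the difference over time. The call at CONS_180 was of another region, that at the end of Junb, and was of a lower value. At PEAK_140 the calls were Ier2 higher and both Junb regions lower. Centred values are relative to the median region of each library. Centring turned 24 of the 32 GR values near members against VEH from positive to negative, among them -0.53, -0.93 and -0.24 upstream of Jund at PEAK_140, CONS_140 and CONS_180, -1.72 and -0.53 in Fosl2 at CONS_140 and CONS_180, and -0.45 upstream of Junb at CONS_140. The median over all regions is what centring removes. In pSer2 Pol2 it gave 1 member for PEAK_140 against VEH and against NADIR_180 (Myc) and 1 for PEAK_140 against CONS_140 and the difference over time (Jun). Testing only regions above the lower quartile gave 1 in the same 4 comparisons and 1 for CONS_140 against CONS_180, and no variance trend gave 1 in the 2 Jun comparisons.

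The replicate block gave 1 member for PEAK_140 against NADIR_180 (Myc) and 1 for PEAK_140 against CONS_140 (Jun), and changed no other pSer2 Pol2 call. In GR and RNA same-numbered libraries shared only a number (r from -0.0265 to 0.0718 and from -0.0488 to 0.081), and the block moved no count of members by more than 1.5 times. The RNA difference of responses called 1 gene (Fosl2) with no filter on low counts.

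Leaving out 1 library gave 0 to 1 for RNA CONS CORT against PULS CORT, 0 to 1 for GR at NADIR_180 (1 without NADIR_180 replicate 2) and 2 to 6 at CONS_140 (6 without CONS_140 replicate 2). In pSer2 Pol2 it gave 0 to 2 for CONS_140 against VEH, 0 to 1 for CONS_140 against CONS_180, 0 to 1 for PEAK_140 against CONS_140 and 0 to 2 for the difference over time, in each case above 0 without CONS_140 replicate 2, where the lone library is assumed to vary like the other groups. Except for centring and the tests on fewer regions or libraries, the cause was not tested. In RNA, Fosl2 rests on 748 reads and the other members on 10 to 126 reads in this count table, whose features are not established. The authors' exonic counts are means per sample and not totals, so the 2 are not on the same scale. They were 79.6 for Ier2, 33.5 for Myc and 23.7 for Egr1, and lower for Fosl2 (9.12), which has the most reads in the count table.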
